A study of Mus musculus with 11 samples.

Results

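The microglia and border macrophage genes described here are 34 mouse genes taken by name and found by gene symbol in a table of 55487 Ensembl genes. They were read across all 11 libraries of an RNA sequencing study of spinal cord and of mouse fetal fibroblasts (MEF), a primary culture labelled as made from fetal tissue. The S87L libraries came from C57BL/6 heterozygotes for the p.S87L allele of Morc2a, whose product MORC2A is an ATPase of chromatin that acts together with HUSH, a complex that silences transposons and some genes. The WT libraries came from wild-type C57BL/6 mice. There were 3 S87L and 3 WT spinal cord libraries, and 2 S87L and 3 WT MEF libraries. Age, sex and cord level are not given in the labels, nor is it said that each library had its own mouse, fetus or culture. The p-values below therefore cover only how far these libraries vary among themselves, and that variation may be technical.

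Microglia are the resident macrophages of the brain and spinal cord parenchyma, and they live on signals through the receptor CSF1R. At rest they carry a typical set of surface genes, such as P2ry12, Tmem119 and Cx3cr1, which is called the homeostatic signature. Border macrophages sit in the meninges and around vessels, and they are known for scavenger receptors such as CD163, MRC1 and LYVE1. Class II antigen presentation genes are low in resting microglia and are carried mainly by some border macrophages and by dendritic and B cells.

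The 34 genes were sorted by role into 6 groups. Homeostatic microglia genes were 8, receptors and adaptors 9, C1q chains 3, lysosomal and cytoplasmic genes 5, border macrophage genes 6 and antigen presentation genes 3. Levels are FPKM, the fragments assigned to a gene per kilobase of its length, scaled to a read total. A change is the S87L minus WT difference of log2(FPKM + 0.5), which understates the change of low genes, and it was called at a limma adjusted p under 0.05 over all genes with a mean of at least 0.5 FPKM in the tissue. Per-library values are listed in the order of replicates 1, 2 and 3.

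In spinal cord, 32 of the 34 genes passed the filter on low values. Of these 32, 21 rose in S87L, 1 fell, Sall1, and 10 did not pass the test, with a median change of 0.31. Over all 15648 genes tested in cord, 5.17% rose and 7.71% fell, and the median change was -0.02. For 23 of the 32 genes every S87L library was above every WT library, against 13.8% of all genes tested. In bulk tissue, more cells of a type and more RNA per cell cannot be told apart.

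The 6 groups of genes differed in size of change. All 5 border macrophage genes tested and all 3 antigen presentation genes rose, with median changes of 0.78 and 0.74. The homeostatic microglia genes had a median of 0.21, with 3 of 8 higher and 1 lower. C1q chains lay between them, with 3 of 3 higher and a median of 0.37, as did the lysosomal and cytoplasmic genes, with 3 of 5 higher and a median of 0.34. Of the receptors and adaptors, 8 were tested, 4 rose and the median was 0.23. On the linear FPKM scale the ratio of S87L to WT means ran between 1.73 and 2.71 for the border macrophage genes, 1.97 and 2.43 for the antigen presentation genes, and 0.855 and 1.23 for the homeostatic genes. The ranges for single genes of the border and homeostatic groups did not overlap. No test was made of one group of genes against another, since the genes were chosen by name with earlier results of these data known.

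**Figure D1:**
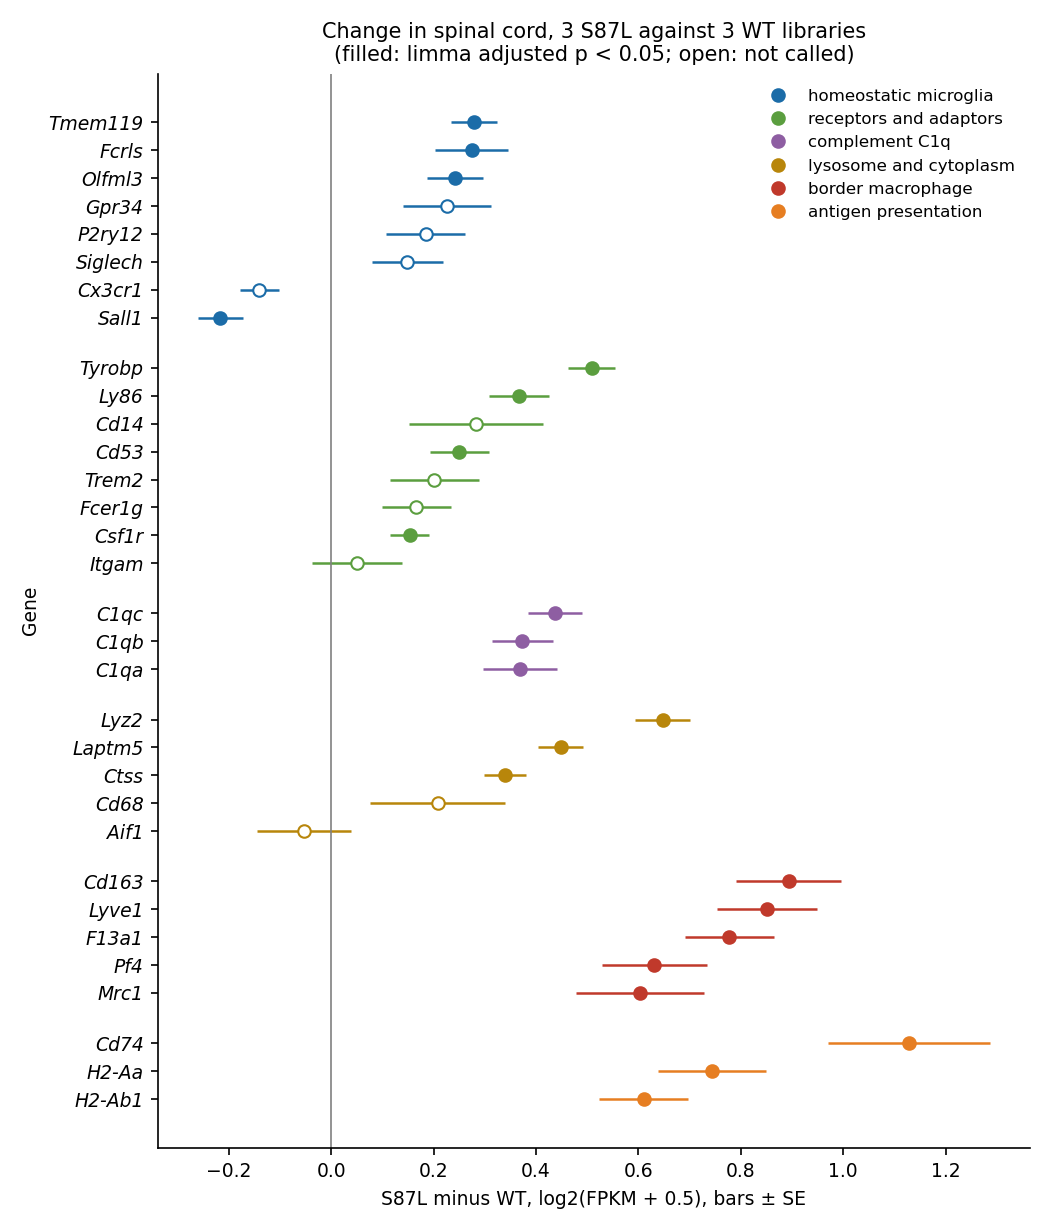
Change in spinal cord for each of the 32 genes tested, as S87L minus WT in log2(FPKM + 0.5) on the horizontal axis, with bars of 1 SE, genes on the vertical axis and colour by role. The 8 border macrophage and antigen presentation genes sit between 0.60 and 1.13, to the right of all 8 homeostatic genes, which sit between -0.22 and 0.28.

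Border macrophage genes were low in the cord, with WT means of 0.043 to 1.38 FPKM, and the tested ones rested on 47 to 218 WT reads per gene over 3 libraries. Cd163 (chromosome 6, 124304656 to 124330527), the scavenger receptor that takes up haemoglobin bound to haptoglobin, had 1.47, 1.29 and 1.30 FPKM in S87L cord, against 0.506, 0.582 and 0.413 FPKM in WT cord. Every S87L library was above every WT library. The change was 0.89 with an SE of 0.10 (limma adjusted p = 0.00273), on 451 reads in S87L and 130 in WT. Lyve1 (chromosome 7, 110850607 to 110863239), a hyaluronan receptor of lymphatic vessels and of perivascular macrophages, had 1.57, 1.31 and 1.36 FPKM in S87L cord and 0.605, 0.486 and 0.585 FPKM in WT cord. Its groups did not overlap, and the change was 0.85 with an SE of 0.10 (limma adjusted p = 0.00273).

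F13a1 (chromosome 13, 36867178 to 37050244) encodes the A subunit of coagulation factor XIII, which tissue macrophages also make. Its level was 1.5, 1.67 and 1.41 FPKM in S87L cord, against 0.672, 0.722 and 0.649 FPKM in WT cord. The replicates of each genotype were close together, and the change was 0.78 with an SE of 0.09 (limma adjusted p = 0.00257). Pf4 (chromosome 5, 90772435 to 90773383), the chemokine CXCL4 of platelets and of some macrophages, had 2.04, 2.63 and 2.60 FPKM in S87L cord and 1.23, 1.5 and 1.42 FPKM in WT cord. S87L replicate 1 was the lowest of its group but still above the WT libraries. Pf4 changed by 0.63 with an SE of 0.10 (limma adjusted p = 0.0101), on 107 reads in S87L and 47 in WT.

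Mrc1 (chromosome 2, 14229392 to 14332057), the mannose receptor CD206 that binds and takes up sugar-bearing ligands, had 1.25, 1.51 and 0.983 FPKM in S87L cord and 0.624, 0.605 and 0.697 FPKM in WT cord. The S87L libraries were spread more widely than those of WT, with an SD of 0.261 against 0.0485 (n = 3 each). Its change of 0.60, with an SE of 0.13, had a limma adjusted p of 0.0225. This call was lost when any 1 WT library, S87L replicate 1 or S87L replicate 2 was left out, and when replicate number was added to the fit as a block. Over all alternatives the adjusted p ran between 0.00102 and 0.0815. Ms4a7, a membrane protein of macrophages, was under the filter, with 0.0571, 0.0692 and 0.0962 FPKM in S87L cord and 0.0372, 0.0304 and 0.0613 FPKM in WT cord. It rested on 20 S87L and 9 WT reads, and the libraries of the genotypes overlapped.

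The antigen presentation genes are the invariant chain Cd74, which guides class II molecules to the endosome, and H2-Aa and H2-Ab1, the alpha and beta chains of the mouse class II molecule I-A. Cd74 had 4.99, 5.11 and 4.63 FPKM in S87L cord, against 2.66, 1.45 and 1.95 FPKM in WT cord. Its change of 1.13, with an SE of 0.16, was the largest of the 32 genes at this pseudocount (limma adjusted p = 0.00589); with a pseudocount of 0.1 those of Cd163 and Cd74 were 1.29 and 1.28, and with voom 1.45 and 1.30. H2-Aa (chromosome 17, 34282744 to 34287823) had 1.47, 1.37 and 1.44 FPKM in S87L cord and 0.785, 0.658 and 0.521 FPKM in WT cord, a change of 0.74 with an SE of 0.11 (limma adjusted p = 0.00602). H2-Ab1 (chromosome 17, 34257689 to 34269419) had 1.15, 1.23 and 1.11 FPKM in S87L cord and 0.602, 0.553 and 0.612 FPKM in WT cord, a change of 0.61 with an SE of 0.09 (limma adjusted p = 0.00623). In none of the 3 did the genotypes overlap, and WT replicate 1 was the highest WT library for Cd74 and for H2-Aa. Leaving out any 1 library kept all 3 calls.

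**Figure D2:**
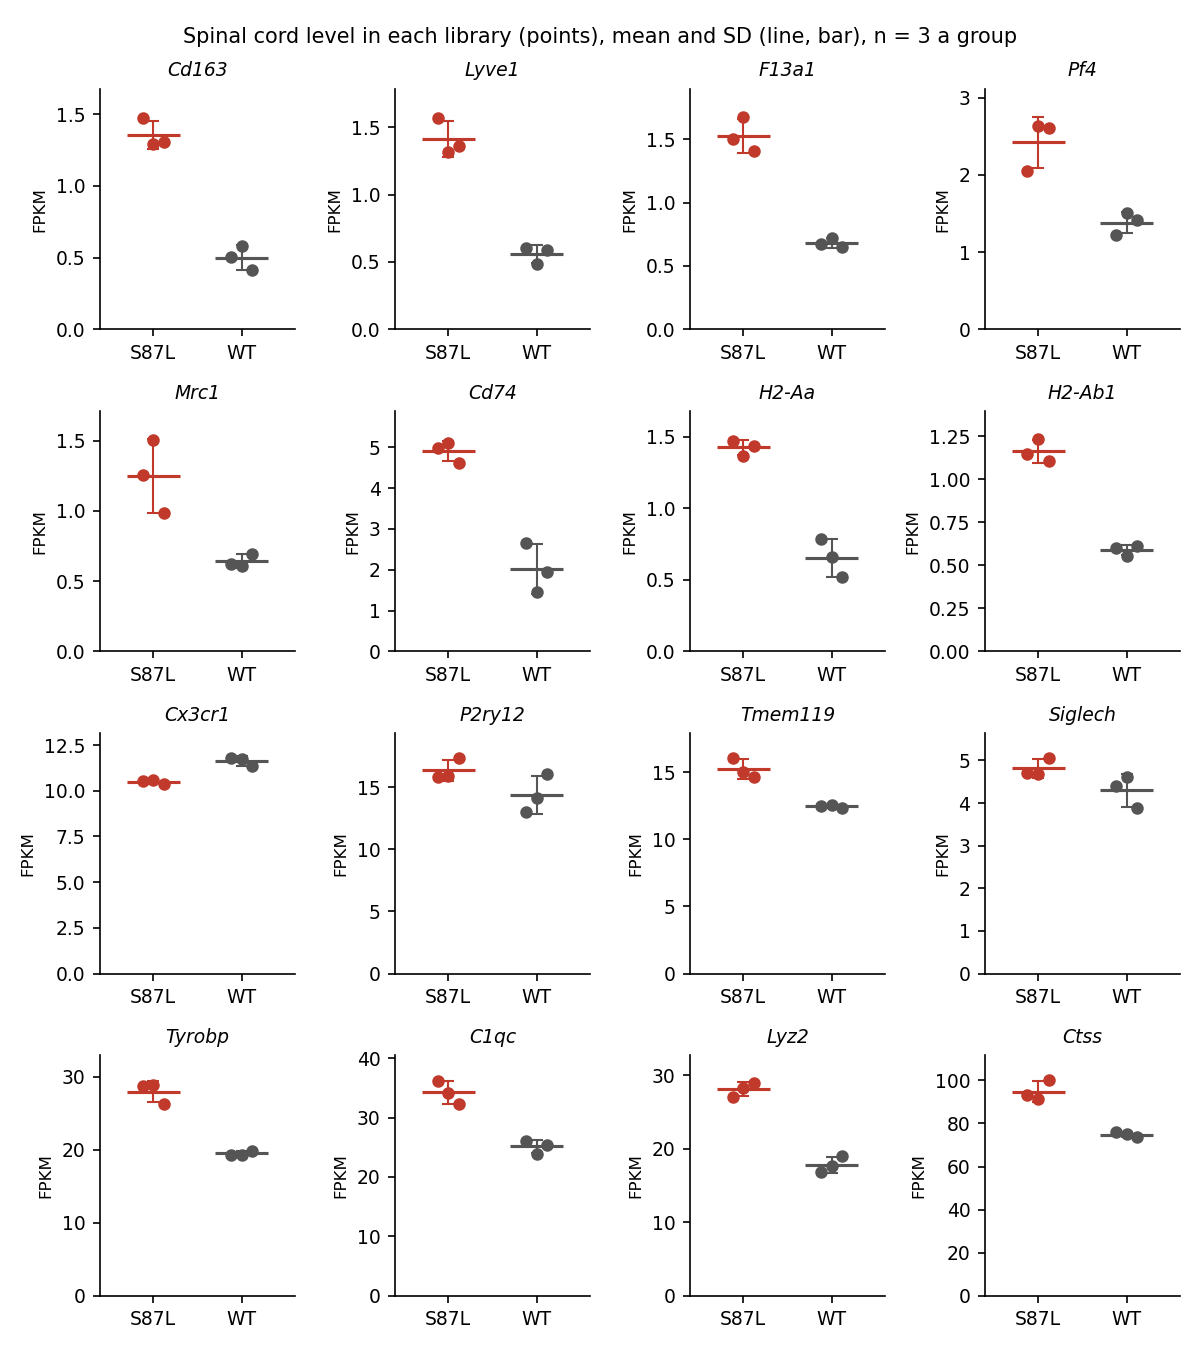
FPKM in each spinal cord library for 16 of the genes, with S87L left of WT in each panel, points for libraries, a line for the mean and a bar for the SD (n = 3 each). Each vertical axis starts at 0, and the gap between genotypes is wide for the 5 border macrophage and 3 antigen presentation genes in the upper panels and narrow or of the opposite sign for Cx3cr1, P2ry12, Tmem119 and Siglech.

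The promoters of 4 genes that rose in S87L cord are shown because they carry letters read by factors known to act on such genes. PU.1, the transcription factor that macrophages and microglia depend on, binds a purine-rich core written GAGGAA, and NF-Y binds the Y box of class II promoters, searched as CTGATTGG, a motif chosen after the data were seen. Each sequence is the 250 bases before the gene's start from RefSeq on GRCm38.p6, read 5′ to 3′ on the gene's strand, with matches in capitals. C1qb lies at chr4:136886201-136886450 on the minus strand, Mrc1 at chr2:14229164-14229413 on the plus strand, F13a1 at chr13:37050245-37050494 on the minus strand and H2-Aa at chr17:34287824-34288073 on the minus strand.
C1qb: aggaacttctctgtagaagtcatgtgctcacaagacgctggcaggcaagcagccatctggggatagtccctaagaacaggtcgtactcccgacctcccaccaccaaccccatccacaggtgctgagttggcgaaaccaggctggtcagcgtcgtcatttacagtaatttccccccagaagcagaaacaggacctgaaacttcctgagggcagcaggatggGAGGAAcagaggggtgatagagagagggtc
Mrc1: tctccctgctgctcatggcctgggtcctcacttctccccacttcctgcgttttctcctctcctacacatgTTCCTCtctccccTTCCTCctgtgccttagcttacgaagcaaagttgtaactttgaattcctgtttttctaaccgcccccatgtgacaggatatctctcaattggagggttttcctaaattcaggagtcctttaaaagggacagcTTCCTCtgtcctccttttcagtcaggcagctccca
F13a1: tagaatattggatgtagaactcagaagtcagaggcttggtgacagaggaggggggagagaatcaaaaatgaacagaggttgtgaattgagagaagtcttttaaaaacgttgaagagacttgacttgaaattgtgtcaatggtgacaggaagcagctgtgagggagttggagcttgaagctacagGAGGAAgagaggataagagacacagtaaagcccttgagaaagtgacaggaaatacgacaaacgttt
H2-Aa: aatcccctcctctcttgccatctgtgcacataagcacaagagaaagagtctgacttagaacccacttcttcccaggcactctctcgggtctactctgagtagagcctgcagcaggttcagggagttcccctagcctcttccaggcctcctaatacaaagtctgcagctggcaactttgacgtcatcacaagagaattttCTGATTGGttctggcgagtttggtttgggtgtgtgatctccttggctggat

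In these letters, Mrc1 holds 3 PU.1 cores read on the opposite strand, as TTCCTC, and C1qb and F13a1 hold 1 each on the gene's strand. Promoters were matched for 25 of the 34 genes, and 14 of the 25 hold the core on either strand: Fcrls, Trem2, Itgam, Ptprc, Cd53, C1qb, C1qc, Ctss, Cd68, Laptm5, Aif1, Mrc1, Pf4 and F13a1. Of all 27025 promoters in the table, 25.9% hold it. The 14 include genes that rose and genes that did not pass the test, such as Aif1 and Itgam. H2-Aa alone of the 25 held the Y box, at positions -51 to -44 from the start, and 4.43% of all promoters hold it. A match describes letters and is not shown to be a bound site.

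Of the homeostatic microglia genes, 3 rose, each by less than any border macrophage gene tested. These 3, Tmem119, Fcrls and Olfml3, were also the only homeostatic genes with a higher mean in WT MEF than in WT cord. Which cells of the cord carried their RNA was not tested. Tmem119 (chromosome 5, 113793729 to 113800516), a membrane protein used to mark microglia, had 16.1, 15.02 and 14.6 FPKM in S87L cord, against 12.5, 12.6 and 12.4 FPKM in WT cord. Its change was 0.28 with an SE of 0.04 (limma adjusted p = 0.0096), and the call was kept under all 16 alternatives. Fcrls, a scavenger receptor like protein of mouse microglia, had 6.18, 6.22 and 6.70 FPKM in S87L cord and 5.61, 4.66 and 5.30 FPKM in WT cord, a change of 0.27 with an SE of 0.07 (limma adjusted p = 0.0459). Olfml3, a secreted olfactomedin protein, had 4.33, 4.02 and 4.20 FPKM in S87L cord and 3.32, 3.62 and 3.45 FPKM in WT cord, a change of 0.24 with an SE of 0.05 (limma adjusted p = 0.029). None of these 3 genes had overlapping genotypes. The Fcrls call was lost without WT replicate 2 or 3 or without any 1 S87L library (adjusted p between 0.0207 and 0.119 over its alternatives), and that of Olfml3 without WT replicate 1 or 3 or without any 1 S87L library (between 0.00717 and 0.102). Both calls were also lost with no filter and with the replicate block, and that of Fcrls with a filter of 0.1 FPKM.

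Sall1 and Cx3cr1 went the other way. Sall1, the transcription factor that maintains microglial identity and that other neural cells also express, had 10.3, 10.04 and 9.57 FPKM in S87L cord, against 11.9, 11.7 and 11.4 FPKM in WT cord. It fell by 0.22 on the log2 scale with an SE of 0.04 (limma adjusted p = 0.0213). The Sall1 call was lost without WT replicate 2 or 3, or without S87L replicate 2 or 3, with adjusted p between 0.00916 and 0.077 over its alternatives. Cx3cr1, the fractalkine receptor through which neurons signal to microglia, had 10.5, 10.6 and 10.4 FPKM in S87L cord and 11.8, 11.7 and 11.3 FPKM in WT cord. All 3 S87L libraries were below all WT libraries, but the change of -0.14, with an SE of 0.04, did not pass the test (limma adjusted p = 0.0534). With library weights it did, at an adjusted p of 0.0406, and over all its alternatives the adjusted p ran up to 0.154.

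The remaining 3 homeostatic genes did not pass the test. P2ry12, the ADP receptor that steers microglial processes to injury, had 15.9, 15.9 and 17.4 FPKM in S87L cord and 13.01, 14.1 and 16.0 FPKM in WT cord, and its genotypes overlapped. Its change was 0.18 with an SE of 0.08 (limma adjusted p = 0.164). Gpr34, a lysophosphatidylserine receptor, had a change of 0.23 and overlapping genotypes (limma adjusted p = 0.132). Siglech, a sialic acid binding lectin of microglia and plasmacytoid dendritic cells, had 4.70, 4.67 and 5.07 FPKM in S87L cord and 4.41, 4.62 and 3.88 FPKM in WT cord. Its change was 0.15 (limma adjusted p = 0.208), although its S87L libraries were all above those of WT.

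Summed per library, the border macrophage genes made a larger share relative to the homeostatic genes in S87L. The 6 border macrophage genes summed to 7.89, 8.48 and 7.75 FPKM in S87L cord, against 3.67, 3.93 and 3.83 FPKM in WT cord. The 8 homeostatic genes summed to 77.1, 74.6 and 78.3 FPKM in S87L cord and 70.0, 71.3 and 71.3 FPKM in WT cord. The border sum was thus 10.2%, 11.4% and 9.89% of the homeostatic sum in S87L cord, and 5.24%, 5.50% and 5.36% of it in WT cord. Antigen presentation genes stood at 9.88%, 10.3% and 9.15% of the homeostatic sum in S87L cord and at 5.78%, 3.73% and 4.33% in WT cord. In both quantities every S87L cord library was above every WT cord library. Between group means, the ratio of S87L to WT was 2.11 for the border sum, 2.30 for the antigen presentation sum and 1.08 for the homeostatic sum.

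**Figure D3:**
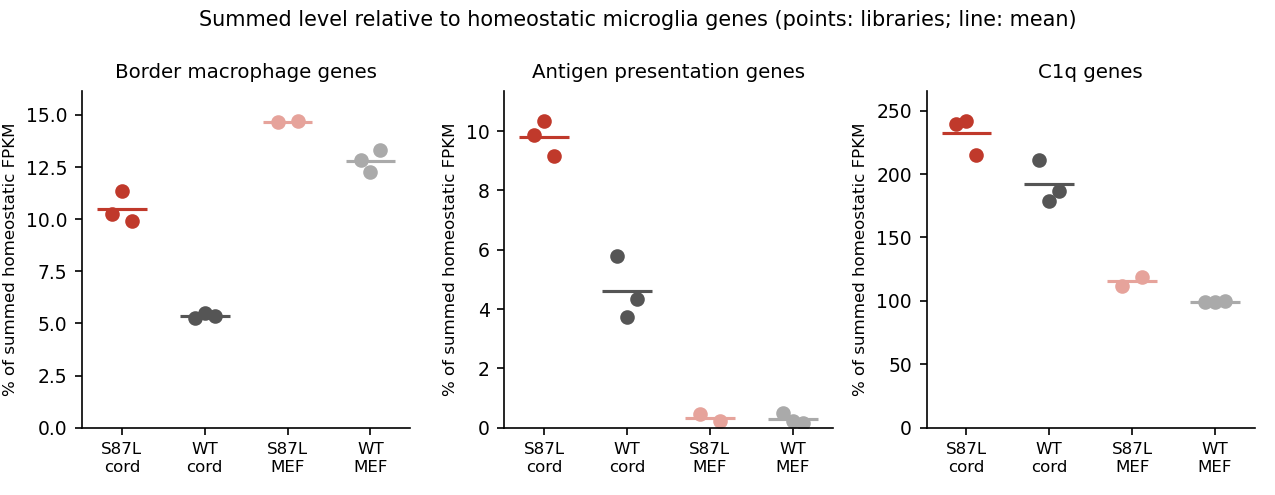
Summed FPKM of border macrophage, antigen presentation and C1q genes as a percentage of the summed FPKM of the 8 homeostatic genes, for S87L and WT cord and S87L and WT MEF; points are libraries and lines are group means. Border macrophage genes stand at 9.89% to 11.4% in S87L cord and 5.24% to 5.50% in WT cord, and antigen presentation genes are under 0.5% in MEF.

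Receptors and adaptors shared by microglia and macrophages moved less than the border macrophage and antigen presentation genes. Their median change of 0.23 was near the 0.21 of the homeostatic genes. Tyrobp (chromosome 7, 30413760 to 30417585), the adaptor DAP12 that carries signals of TREM2 and other receptors, had 28.6, 28.9 and 26.3 FPKM in S87L cord and 19.3, 19.3 and 19.9 FPKM in WT cord. Its change of 0.51, with an SE of 0.05, was the largest of these genes (limma adjusted p = 0.00105). Ly86, the partner MD-1 of a Toll-like receptor homologue, had 5.22, 5.41 and 5.78 FPKM in S87L cord and 4.09, 3.93 and 4.36 FPKM in WT cord, a change of 0.37 with an SE of 0.06 (limma adjusted p = 0.00938). Neither gene's genotypes overlapped, and both calls were kept under all 16 alternatives. Cd53, a tetraspanin of leukocytes, rose by 0.25 with an SE of 0.06 (limma adjusted p = 0.0324).

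Csf1r, the receptor for the growth factors CSF1 and IL-34 that keep microglia alive, had 25.9, 25.2 and 26.2 FPKM in S87L cord, against 23.9, 22.6 and 22.9 FPKM in WT cord. Its change was 0.15 with an SE of 0.04 (limma adjusted p = 0.0395), the smallest of the genes that rose. Csf1r shares 15.1% of its exon bases with Hmgxb3 on the opposite strand, and since the counting is not stated to use strand, reads of both may be mixed. The Csf1r call was lost without WT replicate 2 or 3 or any 1 S87L library (adjusted p 0.011 to 0.118 over its alternatives). It was also lost with no filter, with quantile normalization and with the replicate block. The Cd53 call was lost without any 1 WT library, without S87L replicate 1 or 2, or with no filter (0.00948 to 0.112).

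Fcer1g, Trem2, Cd14 and Itgam did not pass the test. Fcer1g, the common gamma chain of Fc receptors, had a change of 0.17 with an SE of 0.07 (limma adjusted p = 0.152). Trem2, the lipid-sensing receptor that signals through TYROBP, had 2.80, 3.39 and 2.92 FPKM in S87L cord and 2.87, 2.46 and 2.40 FPKM in WT cord. Its change was 0.20 with an SE of 0.09 (limma adjusted p = 0.177), and the genotypes overlapped. With library weights Trem2 passed the test, at an adjusted p of 0.0498, the lowest of a range up to 0.438 over its alternatives. For Cd14, a co-receptor for lipopolysaccharide, the change was 0.28 with an SE of 0.13 (limma adjusted p = 0.204), and S87L replicate 3, at 2.81 FPKM, fell within the WT range of 2.69 to 3.06 FPKM. Without that library the Cd14 change passed the test, at an adjusted p of 0.045, the lowest of a range up to 0.45 over its alternatives. Itgam, the integrin chain CD11b, had a change of 0.05 with an SE of 0.09 (limma adjusted p = 0.748); 68.7% of its exon bases also belong to Gm49368 on the same strand, so its reads are uncertain. Ptprc, the leukocyte phosphatase CD45, was under the filter in cord at 0.530, 0.531 and 0.617 FPKM in S87L and 0.410, 0.421 and 0.418 FPKM in WT. With the filter lowered to 0.1 FPKM its adjusted p was 0.191.

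All 3 C1q chains rose. C1qa, C1qb and C1qc build C1q, the complement starter that microglia make in the central nervous system and that tags synapses and debris. C1qc (chromosome 4, 136889804 to 136893065) had 36.2, 34.1 and 32.4 FPKM in S87L cord and 26.0, 23.9 and 25.4 FPKM in WT cord, a change of 0.44 with an SE of 0.05 (limma adjusted p = 0.00308). C1qb, whose promoter is shown above, had 73.4, 72.6 and 69.2 FPKM in S87L cord and 60.3, 51.4 and 54.3 FPKM in WT cord, a change of 0.37 with an SE of 0.06 (limma adjusted p = 0.00944). C1qa had 75.1, 73.7 and 67.0 FPKM in S87L cord and 61.6, 52.3 and 53.2 FPKM in WT cord, a change of 0.37 with an SE of 0.07 (limma adjusted p = 0.0186). The genes lie next to each other on chromosome 4, and in both genotypes replicate 1 was the highest library for all 3 chains. The C1qa call was lost without WT replicate 2 or 3 or S87L replicate 1 or 2 (adjusted p 0.00102 to 0.0719 over its alternatives).

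Among lysosomal and cytoplasmic genes, Lyz2, Laptm5 and Ctss rose and Cd68 and Aif1 did not pass the test. Lyz2 (chromosome 10, 117277331 to 117282321), lysozyme of macrophages, had 27.1, 28.3 and 29.0 FPKM in S87L cord and 16.8, 17.6 and 19.0 FPKM in WT cord. Its change of 0.65, with an SE of 0.05, was the largest outside the border macrophage and antigen presentation genes (limma adjusted p = 0.00075); its near-identical neighbour Lyz1 may take or give reads. Laptm5, a lysosomal membrane protein of blood cells, had 9.82, 9.90 and 9.30 FPKM in S87L cord and 6.81, 7.07 and 6.995 FPKM in WT cord, a change of 0.45 with an SE of 0.04 (limma adjusted p = 0.00143). Ctss, the protease cathepsin S that trims the invariant chain, had 93.2, 91.3 and 100.2 FPKM in S87L cord and 76.0, 74.9 and 73.5 FPKM in WT cord, a change of 0.34 with an SE of 0.04 (limma adjusted p = 0.00329). In these 3 genes no S87L library reached down to the WT range.

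Cd68, a lysosomal glycoprotein of phagocytes, had 6.06, 5.67 and 4.86 FPKM in S87L cord and 5.84, 4.03 and 4.40 FPKM in WT cord, a change of 0.21 with an SE of 0.13 (limma adjusted p = 0.346). WT replicate 1 stood within the S87L range for Cd68. Aif1, the calcium-binding protein IBA1 that is the usual stain for microglia, had 2.72, 3.07 and 3.57 FPKM in S87L cord and 3.03, 3.35 and 3.34 FPKM in WT cord. Its change was -0.05 with an SE of 0.09 (limma adjusted p = 0.749), the genotypes overlapped, and the sign turned to 0.0089 with quantile normalization and to 0.028 without S87L replicate 1.

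Related genes outside the 34 were counted in the cord from lists by role. Over all genes tested in cord, 5.17% rose and 7.71% fell. Of 20 other microglia genes tested, 5 rose and none fell, with a median change of 0.14; those with the smallest p were Mertk, a receptor for engulfing apoptotic cells, at 0.46 (limma adjusted p = 0.00262), Rnase4 at 0.46 (0.0065), Lag3 at 0.55 (0.014) and Selplg at 0.25 (0.0381). Of 16 other border macrophage genes 8 were tested, 2 rose, none fell, and the median was 0.25. Cd36, a scavenger receptor also of endothelium and muscle, had the largest change, 0.99 with an SE of 0.13 (limma adjusted p = 0.00419). It had 0.892, 0.895 and 0.999 FPKM in S87L cord and 0.308, 0.226 and 0.133 FPKM in WT cord. Its WT mean of 0.222 FPKM was under 0.5 FPKM, so Cd36 passed the filter, and entered the count of 2, only through the S87L libraries. Cd38 rose by 0.27 (adjusted p = 0.0209), and Wfdc17 and Stab1 had changes of 0.49 and 0.23 that did not pass the test (0.0752 and 0.139). For class II, 7 of 13 further genes were tested, with a median of 0.01. Of these, H2-Eb1, the beta chain of I-E, had 2.74, 2.83 and 2.51 FPKM in S87L cord and 1.85, 1.11 and 1.33 FPKM in WT cord, a change of 0.74 (limma adjusted p = 0.0142). Rfx5, a subunit of the factor that drives class II promoters, fell by 0.28 (0.0149). Cd86 and Rfxank did not pass, with changes of 0.36 and -0.10 (0.106 and 0.353).

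Genes linked to activated microglia, signalling and complement were counted in the same way, again beside 5.17% higher and 7.71% lower over all genes tested in cord. Of 23 disease-associated microglia genes, 19 were tested, 8 rose and 2 fell, with a median of 0.19; Lgals3, the lectin galectin-3, had 5.36, 5.43 and 5.82 FPKM in S87L cord and 3.66, 3.20 and 3.68 FPKM in WT cord, a change of 0.59 (limma adjusted p = 0.00233). Ccl6, Cd52 and B2m rose by 0.53, 0.33 and 0.23 (0.00281, 0.0161 and 0.0169). Of 15 complement genes beyond C1q, 10 were tested, 5 rose and 1 fell, with a median of 0.32. The complement inhibitor Serping1 rose by 0.76 (0.00479), C4b by 0.29 (0.00807) and the integrin chain Itgb2 by 0.37 (0.0163). Signalling genes below TYROBP and CSF1R numbered 12 tested of 16, with 2 higher, none lower and a median of 0.24, the called ones being Plcg2 at 0.30 (0.0214) and Lyn at 0.24 (0.0286), while Pik3cg at 0.30 (0.0677) and Inpp5d at 0.25 (0.0966) did not pass. Of 9 myeloid transcription factors 7 were tested and 2 rose, among them Ikzf1 at 0.41 (0.0346), whereas Cebpa at 0.32 (0.0739) and Irf5 at 0.26 (0.132) did not pass. Of 9 ligands of microglial receptors none rose and Clu, an apolipoprotein that binds TREM2, fell by 0.20 (0.00804). Csf1, the growth factor for CSF1R, had a change of -0.15 (0.0735), and Gas6 and Cd200 had changes of 0.11 and -0.06 (0.292 and 0.304).

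Markers of other cells of the cord sample moved with the genotype as well, where 5.17% of all genes tested in cord rose and 7.71% fell. Of 14 meninges and fibroblast markers 12 were tested, 7 rose and none fell, and their sum was 58.6 to 61.2 FPKM in S87L cord and 33.3 to 36.9 FPKM in WT cord. The border macrophage sum was 13.03%, 13.9% and 13.2% of this sum in S87L cord and 9.95%, 11.3% and 11.5% in WT cord. Ogn and Dcn, matrix proteins of fibroblasts, rose by 1.14 and 1.22. Of 15 skeletal muscle markers 14 rose, Mb and Atp2a1 by 2.21 and 1.78, and the median change of the 15 was 1.67. The 15 summed to 225.4 to 232.6 FPKM in S87L cord and 148.0 to 161.6 FPKM in WT cord. Red blood cell markers rose in 3 of 6 cases, at 410.0 to 448.7 FPKM in S87L and 337.0 to 372.6 FPKM in WT, with Hbb-bs and Hbb-bt up by 0.30 and 0.32. Schwann cell markers rose in 4 of 7 cases, with Prx up by 0.51, and summed to 160.4 to 166.3 FPKM in S87L and 141.1 to 144.1 FPKM in WT. Pericyte and smooth muscle markers rose in 4 of 8 cases, with Acta2 and Tagln up by 1.02 and 0.86, and summed to 91.8 to 94.3 FPKM in S87L and 76.6 to 79.5 FPKM in WT. All 6 Hox genes of groups 9 and 10 that were tested fell, by 1.78 for Hoxc10 and 2.22 for Hoxa10, and summed to 34.9 to 38.9 FPKM in S87L cord and 69.0 to 75.8 FPKM in WT cord. In none of these lists was a marker at 0 in all cord libraries. The part of any of these differences in the macrophage results was not tested.

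Of the markers of blood leukocytes tested in cord none passed the limma test, and 2, both of neutrophils, had an unadjusted p under 0.05, as had 29.1% of all genes tested in cord. Of 8 monocyte markers 3 were tested, with sums of 6.25 to 6.62 FPKM in S87L and 6.05 to 6.66 FPKM in WT. Neutrophil markers, 7 tested of 10, summed to 30.3 to 33.9 FPKM in S87L and 35.5 to 40.9 FPKM in WT, and lymphocyte markers, 1 tested of 12, to 1.33 to 1.77 FPKM in S87L and 1.10 to 1.57 FPKM in WT. Vcan and Ifitm6 among the monocyte markers had changes of 0.05 and -0.14, S100a8 and Ltf among the neutrophil markers -0.36 and -0.39, and Trbc2 of T cells -0.05. The cord held its own cell types in every library, with neuron markers at 2175 to 2237 FPKM in S87L and 2246 to 2265 FPKM in WT. Among neuron, astrocyte and oligodendrocyte markers, 10 each, 0, 2 and 1 rose and 2, 1 and 1 fell, and of 11 endothelium markers 2 rose and 2 fell. The shares over all genes tested in cord were 5.17% higher and 7.71% lower, and 1 of 10 either way is near them. Before adjustment, 2 neuron, 5 astrocyte, 6 oligodendrocyte and 6 endothelium markers had a limma p under 0.05, beside 29.1% of all genes tested in cord. Oligodendrocyte markers summed to 3738 to 3899 FPKM in S87L and 3942 to 4024 FPKM in WT, with 3 changes positive and 7 negative. The named markers of these lists were Gjb6 and Slc1a3 of astrocytes at 0.43 and 0.33, Mobp and Opalin of oligodendrocytes at 0.17 and -0.87, Nefm and Syt1 of neurons at -0.13 and -0.22, and Slc2a1 and Kdr of endothelium at 0.24 and -0.66. None of 6 motor neuron markers passed the limma test, and 2 had an unadjusted p under 0.05, near the 29.1% of all genes tested. Slc18a3 and Slc5a7 had changes of 0.21 and 0.22.

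The reads recovered per library numbered 20.4, 23.5 and 19.4 M in S87L cord and 19.0, 15.5 and 15.4 M in WT cord, and 14.5 and 12.1 M in S87L MEF and 14.3, 14.3 and 15.1 M in WT MEF. Morc2a had 4.71, 4.93 and 4.95 FPKM in S87L cord and 5.61, 5.66 and 5.71 FPKM in WT cord, a change of -0.20 (limma adjusted p = 0.0269), and a change of -0.17 in MEF (0.0421). FPKM per gene does not show which allele was read, so it does not check the genotype. Xist was read in all 11 libraries, at 17.5, 17.3 and 18.9 FPKM in S87L cord and 23.6, 28.3 and 26.5 FPKM in WT cord, a change of -0.53 (limma adjusted p = 0.00447), and its interaction term was 0.73 (0.00153). Eif2s3y and Kdm5d of the Y chromosome were listed at 0 in all of them. Other Y chromosome genes looked at had traces in a few cord libraries, of at most 0.0206 FPKM.

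Many of the 34 genes were also read in the fibroblast cultures. The C1q chains had WT means of 23.3 to 56.2 FPKM in MEF, and Lyz2 had 130 and 127 FPKM in S87L MEF and 135, 140 and 138 FPKM in WT MEF. Of the 34 genes, 16 had a higher mean in WT MEF than in WT cord. Mrc1 had 6.92 and 7.59 FPKM in S87L MEF and 8.12, 8.13 and 8.27 FPKM in WT MEF, and Ms4a7, hardly read in cord, had 2.21 and 2.70 FPKM in S87L MEF and 3.49, 3.05 and 3.39 FPKM in WT MEF. Siglech had no read in any MEF library, and Cd163 had 1 read in all 5 together. In all, 9 genes were under 0.5 FPKM in every MEF library: Siglech, Gpr34, Ly86, Cd163, Lyve1, F13a1, Cd74, H2-Aa and H2-Ab1. The border macrophage sum was 14.7% and 14.7% of the homeostatic sum in S87L MEF and 12.8%, 12.2% and 13.3% of it in WT MEF, with homeostatic sums of 90.0 and 90.8 FPKM in S87L MEF and 116.3, 115.5 and 114.0 FPKM in WT MEF. Tmem119, Fcrls and Olfml3, with means of 58.4, 24.7 and 22.8 FPKM in WT MEF, made most of that homeostatic sum, so the share moves with them. The antigen presentation genes together summed to 0.217 to 0.406 FPKM in S87L MEF and 0.168 to 0.565 FPKM in WT MEF. Whether other cells in the cultures or the fibroblasts themselves carried this RNA was not tested, and it bears on every MEF value and on the comparison of tissues. Fibroblast culture markers summed to 5927 to 6288 FPKM in S87L MEF and 6258 to 6292 FPKM in WT MEF.

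**Figure D4:**
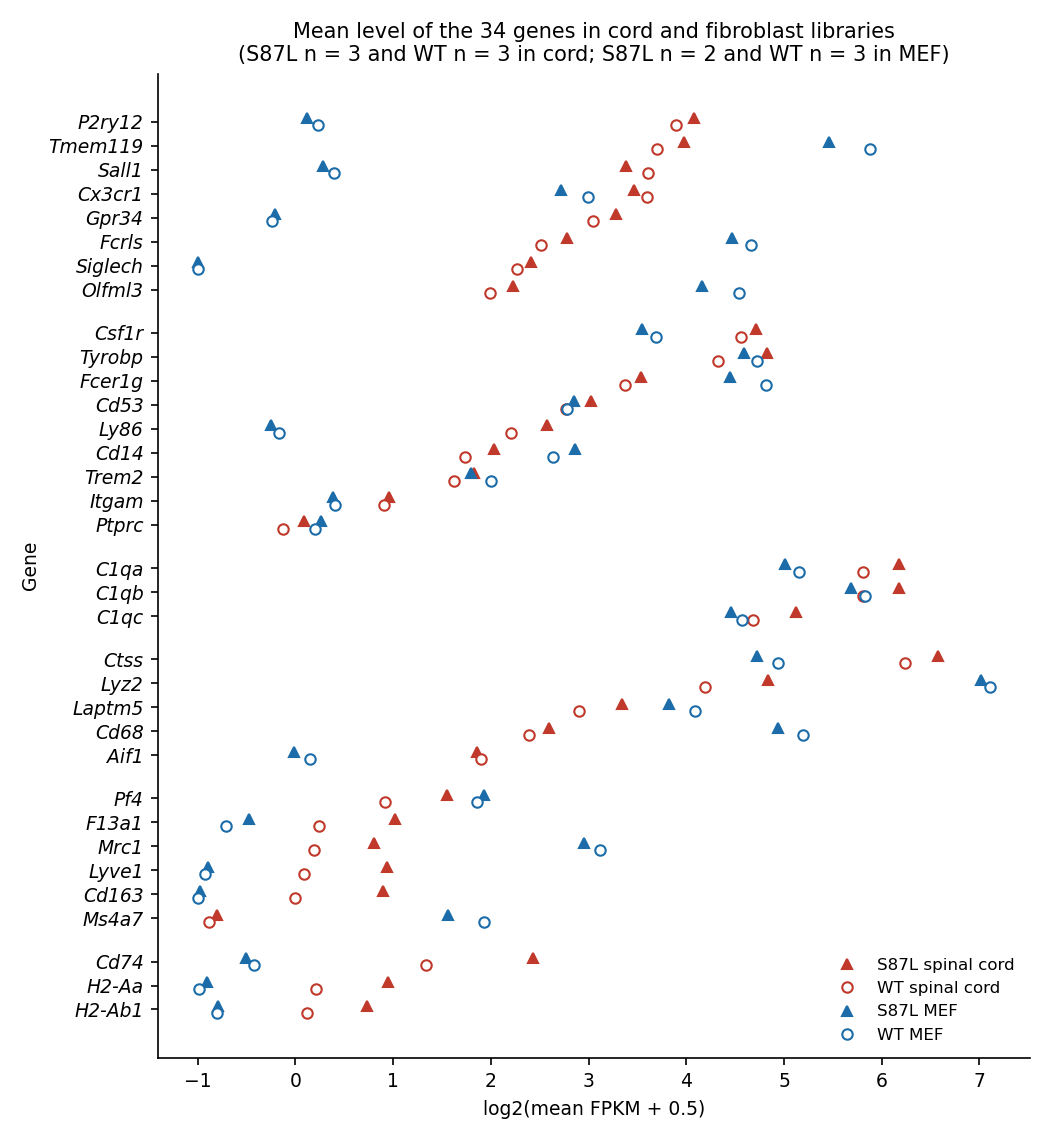
Mean level of each of the 34 genes as log2(mean FPKM + 0.5) on the horizontal axis, genes by role on the vertical axis, with triangles for S87L and open circles for WT, and colour for tissue (n = 3 a group, 2 for S87L MEF). Lyz2, Mrc1 and Ms4a7 stand further right in MEF than in cord, and Siglech, Cd163 and the antigen presentation genes stand at the left edge in MEF.

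In MEF, 25 of the 34 genes were tested; none rose and 5 fell in S87L, with a median change of -0.14. Over all 13773 genes tested in MEF, 4.91% rose and 6.32% fell, and the median was -0.01. Before adjustment, 15 of the 25 had a limma p under 0.05, as had 27.9% of all genes tested in MEF. With voom on recovered reads 10 fell and none rose. Tmem119 had 43.0 and 44.0 FPKM in S87L MEF, against 58.0, 59.0 and 58.2 FPKM in WT MEF, and fell by 0.42 on the log2 scale with an SE of 0.04 (limma adjusted p = 0.00198). Olfml3 had 17.6 and 17.3 FPKM in S87L MEF and 23.3, 23.0 and 22.2 FPKM in WT MEF, and fell by 0.38 with an SE of 0.04 (limma adjusted p = 0.0042). Both genes were higher in MEF than in cord. Their calls were kept when any 1 WT MEF library was left out, but both were lost with the replicate block, at limma adjusted p of 0.0573 for Tmem119 and 0.0649 for Olfml3.

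The other 3 MEF calls were each lost without a single library, and none of the 5 was kept under every alternative run. Cd68 had 30.8 and 29.5 FPKM in S87L MEF and 36.2, 36.8 and 35.3 FPKM in WT MEF and fell by 0.26 with an SE of 0.04 (limma adjusted p = 0.0153), a call lost without any 1 WT library. Cx3cr1 had 5.76 and 6.40 FPKM in S87L MEF and 7.74, 7.41 and 7.26 FPKM in WT MEF and fell by 0.28 with an SE of 0.06 (limma adjusted p = 0.0398), a call lost without any 1 WT library or S87L replicate 1. Its gene model on chromosome 9 (119901616 to 120069879) spans 9 other genes, with 1.73% of its exon bases shared. Fcrls had 22.0 and 21.5 FPKM in S87L MEF and 25.3, 23.9 and 25.1 FPKM in WT MEF and fell by 0.19 with an SE of 0.04 (limma adjusted p = 0.0467), a call lost without any 1 library. Over the alternatives the adjusted p ran between 0.00707 and 0.131 for Cd68, 0.00627 and 0.171 for Cx3cr1 and 0.0296 and 0.24 for Fcrls. The count of 5 was 2 without WT replicate 1 or 2, 3 without WT replicate 3 or S87L replicate 1, and 8 without S87L replicate 2. Of 14 meninges and fibroblast markers in MEF, 12 were tested, 4 fell and none rose, against 6.32% lower and 4.91% higher over all genes tested in MEF. Their sums were 3357 to 3625 FPKM in S87L and 3882 to 3903 FPKM in WT, and the part of these markers in the MEF results was not tested.

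The genotype difference was compared between tissues by the interaction term of a fit of all 11 libraries, as the change in MEF minus the change in cord. Of the 23 genes tested in both tissues, 14 had a term called lower and none a term called higher (limma adjusted p under 0.05). The median term of the 23 was -0.51. A further 7 genes, Ly86, Cd163, Lyve1, F13a1, Cd74, H2-Aa and H2-Ab1, were also called lower, but they were under 0.5 FPKM in every MEF library, so their terms mostly restate the cord change. Of them, Cd163, Lyve1, F13a1, H2-Aa and H2-Ab1 reached the mean of 0.5 FPKM over the 11 libraries only through the S87L cord libraries. The filter thus favoured their calls. Ms4a7, tested in MEF and not in cord, brings the count of terms called lower to 22 of 34, with those 7 included. Over the 15811 genes of that fit, 6.98% had a term called lower and 6.14% one called higher, and the median was 0.01. Tmem119, Fcrls and Olfml3 were called higher in cord and lower in MEF, with interaction terms of -0.70 (SE 0.06, limma adjusted p = 4.02e-05), -0.46 (SE 0.09, 0.00839) and -0.62 (SE 0.07, 0.000221). Lyz2 had a term of -0.74 (SE 0.07, limma adjusted p = 8.59e-05), Laptm5 of -0.71 (SE 0.08, 0.000297) and Mrc1 of -0.77 (SE 0.14, 0.0057), each of them above 0.5 FPKM in every library. Cd14, Cd53 and Pf4 had positive changes in both tissues, with terms of -0.05, -0.17 and -0.58 that did not pass the test (0.892, 0.261 and 0.0544). Without S87L cord replicate 2 the count of 22 was 13, and without S87L cord replicate 3 it was 14.

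**Figure D5:**
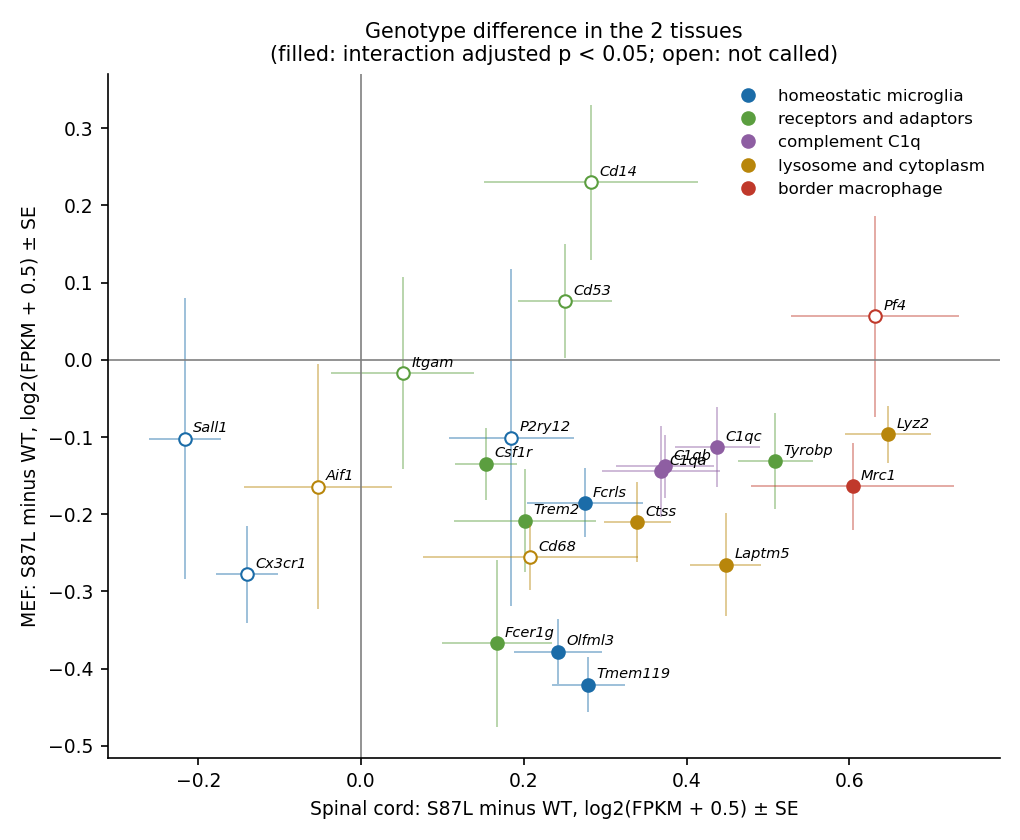
Change in MEF on the vertical axis against change in spinal cord on the horizontal axis, both as S87L minus WT in log2(FPKM + 0.5) with bars of 1 SE, for genes tested in both tissues. Filled points have an interaction adjusted p under 0.05, and Tmem119 and Olfml3 lie lowest, at -0.42 and -0.38 in MEF against 0.28 and 0.24 in cord.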

How the data were processed

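The submitters deposited FPKM values for 55487 Ensembl genes in 11 libraries, 6 of spinal cord and 5 of MEF, prepared with a directional NEBNext kit per the labels' protocols. The submitters' processing notes name Trimmomatic (0.39), HISAT2 (2.2.1), Picard (2.25.5), HTSeq (0.11.3) and build GRCm38. Annotation release, strand setting and duplicate handling were not given in the sources used here. Symbols and coordinates are GENCODE's on GRCm38, with 260 identifiers not found. The deposited FPKM move in steps of 1 read, and dividing by the step gave whole reads within 0.05 for 98.5% to 98.6% of values per library.

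Libraries were grouped by title and genotype label. Cord and MEF libraries had a fit each (limma 3.58.1, R 4.3.3, with trend and robust options) on log2(FPKM + 0.5) over genes of mean FPKM at least 0.5, with Benjamini-Hochberg adjustment over all genes tested; the interaction used all 11 libraries. Every adjusted p in the text is limma's, and SE is the moderated standard error. Alternatives were other pseudocounts, filters, scalings and weights, a replicate block, leaving out each library, and voom on recovered reads, added after the data were seen. All 34 genes are named, plus up to 4 genes of each of 8 pathway lists and 2 of each marker list by smallest p; a count of lists does not test them. A few genes that this rule takes are not reported here. The genes and lists were chosen with earlier results of these data known.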

Additional observations from a re-analysis of the deposited data

Results flagged for a closer look

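The limma interaction term over 11 libraries passed the test for 22 genes, of which 14 were tested in both tissues; each value is the change in MEF minus the change in cord on the log2(FPKM + 0.5) scale.

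Of the homeostatic genes, the terms were -0.70 for Tmem119, -0.46 for Fcrls and -0.62 for Olfml3, whose changes in MEF were -0.42, -0.19 and -0.38 against 0.28, 0.27 and 0.24 in cord. For the receptors and adaptors they were -0.64 for Tyrobp, -0.53 for Fcer1g, -0.41 for Trem2, -0.29 for Csf1r and -0.45 for Ly86. Tyrobp had changes of -0.13 in MEF and 0.51 in cord. With no filter the calls of Fcer1g and Trem2 were lost, and that of Trem2 also with a filter of 0.1 FPKM and with the replicate block. The C1q chains gave -0.51 for C1qa, -0.51 for C1qb and -0.55 for C1qc, with MEF changes of -0.14, -0.14 and -0.11 against 0.37, 0.37 and 0.44 in cord. Lysosomal genes gave -0.55 for Ctss, -0.71 for Laptm5 and -0.74 for Lyz2. The calls of Tmem119, Fcrls, Olfml3, Tyrobp, Csf1r, C1qa, C1qb, C1qc, Ctss, Laptm5, Lyz2 and Mrc1 were kept under every alternative run. The Fcer1g call was lost without WT cord 2 or 3, S87L cord 1 or 3, WT MEF 2 or either S87L MEF library, with adjusted p up to 0.0745, and that of Trem2 without WT cord 2 or 3, S87L cord 2 or 3 or any 1 MEF library, with adjusted p up to 0.136. The call was lost for Ly86 without WT cord 2, S87L cord 2, WT MEF 2 or S87L MEF 2, and with a pseudocount of 0.1, the replicate block and voom, with adjusted p up to 0.246 over all alternatives.

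Among border macrophage genes the terms were -0.77 for Mrc1, -0.87 for Cd163, -0.82 for Lyve1, -0.54 for F13a1 and -0.45 for Ms4a7, and among antigen presentation genes -1.19 for Cd74, -0.67 for H2-Aa and -0.60 for H2-Ab1. Ly86, Cd163, Lyve1, F13a1, Cd74, H2-Aa and H2-Ab1 were under 0.5 FPKM in every MEF library, so these 7 terms mostly restate the cord change. Cd163, Lyve1, F13a1, H2-Aa and H2-Ab1 passed the filter on the mean over all libraries only through the S87L cord libraries. With voom on recovered reads none of the 7 passed the test, with adjusted p of 0.246 to 0.811, and the term of H2-Aa was 0.41. With a pseudocount of 0.1 the calls of F13a1, Cd74, H2-Aa, H2-Ab1 and Ms4a7 were lost. The Ms4a7 term rests on 20 S87L and 9 WT cord reads. Its call was lost without any 1 library other than S87L MEF 2. That of Cd74 was lost without any 1 library other than WT cord 1 or WT MEF 3, that of F13a1 without S87L cord 2, WT MEF 1 or S87L MEF 1, and that of H2-Aa without S87L MEF 1.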

How the results depend on the processing

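In cord, 15 of 22 calls were kept under every alternative in which the gene was tested, and 31 of 32 genes kept their sign. Of the 15, Cd163, Lyve1 and H2-Ab1 were not tested with a filter of 1 FPKM. The 22 calls were 18 with that filter and 18 with no filter. With 1 library left out they were 15 to 19, and those of higher genes were 15 to 19 as well. The 1 lower call, Sall1, was 2 with library weights, where Cx3cr1 joined it and Trem2 was called higher, and 0 to 1 with 1 library left out. Group medians moved most for the low groups: for border macrophage genes 0.78 became 1.06 with a pseudocount of 0.1, 0.59 with 1, 0.70 over genes of at least 1 FPKM, 0.88 with quantile normalization, 0.83 with library weights and 1.18 with voom on recovered reads, and for antigen presentation genes 0.74 became 1.03, 0.55, 0.94 over genes of at least 1 FPKM and 1.12 with voom. With 1 library left out, the border median was 0.73 to 0.82, the homeostatic median 0.14 to 0.24, the receptor median 0.19 to 0.26 and the lysosomal median 0.30 to 0.37; with library weights the homeostatic median was 0.16 and the receptor median 0.28. In MEF the 5 calls, all lower, were 3 with a filter of 0.1 FPKM, 3 with no filter, 3 with library weights, 8 with a filter of 1 FPKM, 10 with voom, and 2 to 8 with 1 library left out; a lone S87L library was then assumed to vary like the others. The interaction count of 22, all lower, was 13 to 22 with 1 library left out. With the filter of 1 FPKM in cord, only Pf4 and F13a1 were left of the border macrophage genes, and Cd74 and H2-Aa of the antigen presentation genes. F13a1 and H2-Aa, with WT means of 0.681 and 0.655 FPKM, passed that filter only through the S87L libraries. The filter thus favoured their calls and the medians over genes of at least 1 FPKM. The pseudocount enters the change itself and shrinks that of low genes. The cause of the other moves was not tested.

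Signs turned with quantile normalization for Aif1 in cord (0.0089) and Itgam in MEF (0.044), neither of them called. With 1 library left out, signs turned for 8 results that were not called: Aif1 in cord ranged between -0.14 and 0.028 (positive without S87L 1), P2ry12 in MEF between -0.28 and 0.075 (positive without WT 2 or S87L 1), Sall1 in MEF between -0.24 and 0.014 (positive without WT 1), Itgam in MEF between -0.067 and 0.030 (positive without WT 1, WT 2 or S87L 1), Pf4 in MEF between -0.14 and 0.26 (negative without S87L 1), the Gpr34 interaction between -0.39 and 0.0047 (positive without S87L MEF 2), the Sall1 interaction between -0.028 and 0.23 (negative without WT MEF 3) and the Cd14 interaction between -0.20 and 0.078 (positive without S87L cord 1 or WT MEF 2). Of the called results, H2-Aa in the interaction turned, to 0.41 with voom. Whether replicate numbers pair the libraries was not settled. Same-numbered cord libraries had correlations of deviations of 0.23, -0.21 and 0.30, against -0.43 to 0.31 for other cord pairs, and MEF ones -0.16 and -0.15. Deviations were taken from group means, so they cancel within a group, and with 2 S87L MEF libraries the MEF values mirror each other. With the replicate block, calls were 18 in cord, 0 in MEF (limma, with 9 of 25 genes at an unadjusted p under 0.05, as had 19.2% of all genes; Tmem119 and Olfml3 had adjusted p of 0.0573 and 0.0649) and 19 in the interaction. A planned edgeR test was not run, since the deposited values are FPKM; voom took its place. Low reads limit the border macrophage genes in cord: Pf4 rests on 47 WT reads and Lyve1 on 78.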
